A study of Bos taurus with 18 samples.

Results

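Of the 17 clonal populations of bovine bone marrow-derived mesenchymal stem cells (MSCs) that were sequenced, the 5 clones with the most MKI67 transcript (clones L, O, C, G and I) were compared with the 5 clones with the least (clones F, D, E, B and M). The clones were selected on their measured MKI67 level in CPM (the gene's reads over all reads on genes in the same library, scaled to a common total), and on nothing else. The 7 clones in between (H, P, N, J, A, K and Q) stayed out of the comparison, as did the 1 library of a mixed, many-cell population. In all, 10 of the 18 libraries of the series entered it.

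Each clone was grown out from 1 cell of the same donor animal, on tissue culture plastic in DMEM with serum and antibiotics, and its poly(A) RNA was sequenced at passage 1, before any differentiation medium was applied. No clone received a treatment, so the groups differ in nothing that the labels name. All 18 libraries come from 1 animal and each clone was sequenced once, so that the clone is the replicate and the p-values measure the spread between clones of this animal. The time in culture and the number of divisions of each clone were not analysed here.

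MKI67 encodes the Ki-67 protein, which coats mitotic chromosomes and is made in cycling cells and lost on withdrawal from the cycle. Cells of the fibroblast lineage, MSCs among them, also spend much of their transcription on collagens and other secreted matrix proteins, which enter the endoplasmic reticulum, are hydroxylated, folded and glycosylated there, and leave through the Golgi. Chromatin must be copied with the DNA in S phase, when histones, their chaperones and maintenance methylation act together. Interferon-stimulated genes are a set of antiviral genes that many cells hold at a low basal level.

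MKI67 was measured at 649.9 CPM in clone L, 625.3 in O, 560.9 in C, 546.9 in G and 208.2 in I, against 63.6 in clone F, 54.9 in D, 52.6 in E, 45.6 in B and 19.4 in M. Clones L, O, C and G thus lay close together and clone I lay well under them. The cut on the high side fell between clone I (208.2 CPM) and clone H (207.2 CPM), which are all but equal, and the cut on the low side between clone F (63.6 CPM) and clone Q (65.2 CPM). In the mixed population MKI67 stood at 17.6 CPM, under every clone. Because these values chose the groups, they are given as a description with no test.

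The labels of speed were checked against other genes of the cell cycle, again without a test, since these genes move with the MKI67 that chose the clones. MCM7, a subunit of the helicase that opens DNA for replication, was at 291, 306, 277, 280.2 and 142 normalised CPM in clones L, O, C, G and I and at 59.5, 76.4, 60.3, 66.5 and 66.5 in clones F, D, E, B and M (CPM scaled by the trimmed mean of M-values, TMM, the unit of all values below other than MKI67). Of 175 listed cell cycle genes with enough reads, the MKI67-high clones lay above the MKI67-low clones without overlap in 167 (11.8% of all genes tested did so), with a median log2 difference of 2.25. Ranking the clones by the mean of 174 cell cycle genes without MKI67 picked the same 5 high and the same 5 low clones. The 2 groups are called MKI67-high and MKI67-low here, because transcripts and not divisions were counted.

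**Figure D1:**
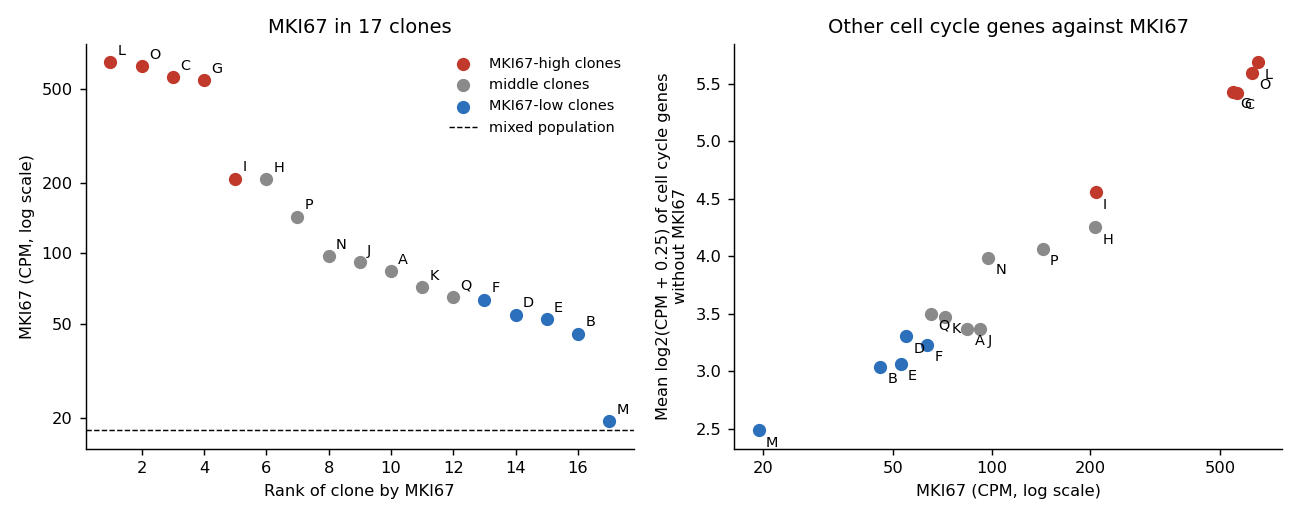
Left, MKI67 in each of the 17 clones (CPM, log axis) against the clone's rank, with the mixed population as a dashed line; right, the mean log2(CPM + 0.25) of 174 other cell cycle genes against MKI67 (log axis), 1 point a clone. Clones L, O, C and G stand apart at 546.9 to 649.9 CPM, clone I (208.2 CPM) sits beside clone H (207.2 CPM), and clone M (19.4 CPM) sits near the mixed population (17.6 CPM).

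The MKI67-high libraries held 13443606 to 15727363 reads on genes and the MKI67-low libraries 11484812 to 18458157, a difference within the spread between clones (exact permutation test, two-sided, p = 0.437, n = 5 and 5). At these depths a count of 0 allows a level of up to 0.163 to 0.261 CPM (3 reads), which covers counting error only. Reads outside genes took 22.2% ± 1.63 (SD, n = 5) of the MKI67-high libraries and 20.03% ± 0.715 (SD, n = 5) of the MKI67-low ones (exact permutation p = 0.0159), and the part of this difference in the results was not tested. Libraries C and O were far closer to each other than any other pair within a group: their counts differed by a chi-square of 4.90 per degree of freedom, against 22.3 to 119 for the other pairs. That is still more than the sampling noise of 1 library sequenced repeatedly, so both were kept, but separate samples of 1 clone could exceed it as well. Whether C and O are 1 clone or 2 cannot be told apart here; if they are 1, the MKI67-high group holds 4 clones. Counts of called genes are therefore also given with C and O left out or, in part, counted as 1 sample. For single genes this is given only for COLGALT1, LEPREL1, COL2A1 and ACAN. With both left out, 29 of the 101 tested genes named by rule and off the cell cycle list were no longer called. The 101 include genes that were not called in the main comparison, such as DCN and FN1. Not all of the 29 are marked below. A gene without such a remark, FURIN, ITGA6 and MT2A among them, is not thereby shown to hold without the pair. As to other cells, haemoglobin genes HBA, HBB and HBA1, the macrophage genes ITGAM, CYBB and C1QB and the endothelial genes CDH5, ESAM and CLDN5 had 0 reads in all 10 clones, while the mesenchymal surface genes THY1, NT5E, ENG, CD44 and PDGFRB were read in each. Only these 3 of the 20 listed macrophage and 3 of the 10 endothelial genes were at 0, and 6 of 11 erythroid genes. All other genes of these lists had reads in at least 1 clone, so the genes at 0 do not show that such cells were absent. The summed level of the 20 listed macrophage genes was 27.0 to 38.1 normalised CPM in the MKI67-high and 16.5 to 80.3 in the MKI67-low clones, and that of the 10 endothelial genes was 35.0 to 76.0 against 17.4 to 33.3. Most of the latter was ERG, a transcription factor of endothelial and skeletal progenitor cells, at 30.8 to 70.98 against 13.6 to 29.8 normalised CPM. ERG and PECAM1 were called higher in MKI67-high clones, and the part of these genes in the results was not tested.

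In edgeR's quasi-likelihood test on the counts, 4104 of 10838 genes (37.9%) passed a Benjamini-Hochberg adjusted p of 0.05 between the groups, 2035 (18.8%) higher and 2069 (19.1%) lower in MKI67-high clones. Outside the listed cell cycle genes the shares were 17.5% and 19.4% of 10663 genes. In either direction this makes 36.9% of them, and a call on any list below is to be read against these shares. The normalised CPM of the groups did not overlap, on the higher side, in 11.8% of all tested genes (10.4% outside the cell cycle list) and, on the lower side, in 11.7% (11.9%). The split depends on scaling: with library totals alone 3762 genes were higher and 884 lower (81.0% of the calls higher), and the median of all genes moved by 0.23 on the log2 scale. The 10 genes with the most reads, among them COL1A1, COL1A2, SPARC and COL3A1, took 12.9% to 17.1% of the reads on genes in MKI67-high clones and 21.8% to 28.6% in MKI67-low clones. Scaling moves all genes by nearly the same amount, so a family median taken relative to all genes hardly moves by construction. These medians were -0.37 under TMM and -0.36 under library totals for matrix, -0.30 and -0.30 for interferon, -0.08 and -0.08 for secretory, and 0.32 and 0.33 for chromatin genes. Their likeness is no check on scaling, and the numbers of calls in the families did change with it. For single genes the loss of a call under library totals is marked below in some cases only. Fewer cells of a type and less RNA of a gene in every cell cannot be told apart in these bulk libraries.

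**Figure D2:**
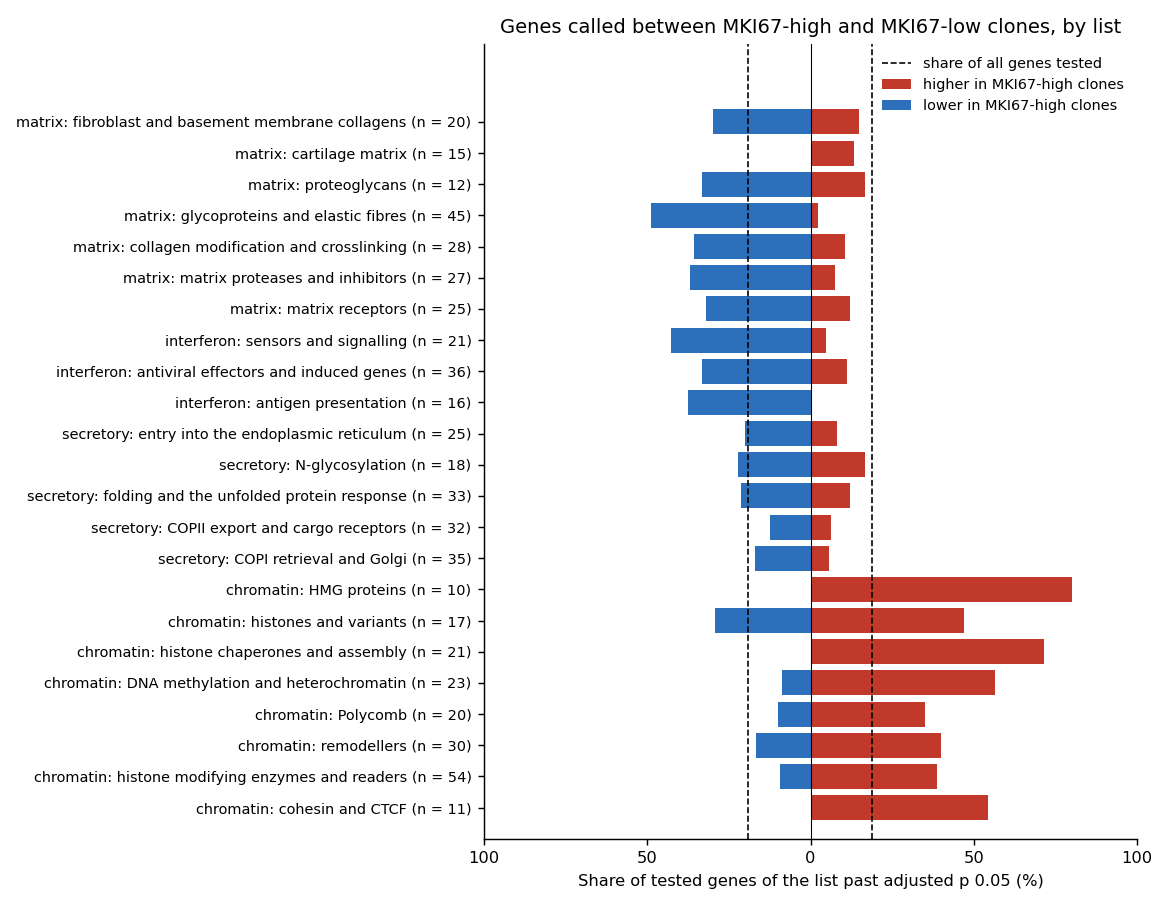
Share of the tested genes of each list (n in brackets) past an adjusted p of 0.05, higher in MKI67-high clones to the right and lower to the left, with the shares of all genes tested (18.8% and 19.1%) as dashed lines. Glycoproteins and elastic fibres reach 48.9% on the lower side with 2.22% on the higher, and HMG proteins reach 80.0% on the higher side.

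Of 206 matrix genes in the files 172 were tested, and 60 (34.9%) were lower in MKI67-high clones, 16 (9.30%) higher and 96 not called, with a median log2 difference of -0.39 against -0.02 for all genes. The groups did not overlap in 33 of them on the lower and 8 on the higher side. Under library totals 44 were lower and 33 higher. The fibrillar collagens of bone, skin and tendon led in abundance. COL1A2, the second chain of type I collagen, was at 18843, 25153, 27284, 27501 and 33273 normalised CPM in clones L, O, C, G and I and at 67319, 46916, 59054, 58086 and 74628 in clones F, D, E, B and M (log2 difference -1.22 ± 0.19 (SE), adjusted p = 0.00072). The groups did not overlap, and in clone L the level was lowest. COL1A1, the first chain, was at 27189 to 56031 in MKI67-high and 83179 to 101919 in MKI67-low clones (log2 difference -1.06 ± 0.20 (SE), adjusted p = 0.0023), again without overlap. COL3A1, which forms thin fibrils with type I collagen, was at 4201, 4406, 5195, 3376 and 5985 against 18254, 7492, 14306, 16817 and 34523 (log2 difference -1.98 ± 0.34 (SE), adjusted p = 0.0015), with clone D nearest to the MKI67-high clones and clone M farthest. COL8A2 (-1.91 (adjusted p = 0.0053)), COL5A2 (-0.8 (adjusted p = 0.011)) and COL6A3 (-0.61 (adjusted p = 0.01)) were lower as well.

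Not every collagen was lower. COL14A1, a collagen on the surface of fibrils, was at 250.4, 279, 275, 263 and 208 against 114, 134, 123, 196 and 97.8 (log2 difference 0.94 ± 0.17 (SE), adjusted p = 0.002), and COL18A1, the basement membrane collagen that yields endostatin, at 2.46, 2.4, 2.49, 2.57 and 9.44 against 0.657, 0.536, 0.359, 1.63 and 0.241 (log2 difference 2.48 ± 0.58 (SE), adjusted p = 0.0069). Clone I carried the highest COL18A1 level by a wide margin, and the log2 difference without that clone was 1.84. COL14A1 reached 193 to 995 in the middle clones, beyond both groups, and with 6 clones a group its log2 difference was -0.10 (adjusted p = 0.90). COL15A1 was higher too, by 0.74 (adjusted p = 0.0097).

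Secreted glycoproteins and elastic fibre genes were the list with the largest share of lower calls among the matrix lists, 22 of 45 tested (48.9%) with 1 higher (2.22%), and 14 lower with 4 higher under library totals. SPARC, a collagen-binding protein of bone and wound matrix, was at 7036 to 13702 in MKI67-high and 21931 to 38991 in MKI67-low clones (log2 difference -1.23 ± 0.22 (SE), adjusted p = 0.0018). CTGF, a matricellular protein and common readout of the YAP/TAZ and TGF-beta pathways, was lower (log2 difference -1.36 ± 0.16 (SE), adjusted p = 0.00018), and so were FNDC1 (-1.36 (adjusted p = 0.0012)), LAMA4 (-1.59 (adjusted p = 0.0023)) and THBS1 (-1.11 (adjusted p = 0.0057)). ELN, the elastin gene, was at 119, 335, 444, 380.0 and 272 against 735, 5275, 1324, 533 and 204 (log2 difference -2.37 ± 0.75 (SE), adjusted p = 0.028). Its groups overlapped, clone D alone reached 5275 normalised CPM, and the call was lost on leaving out clone L, O, G or D. FN1, fibronectin, did not differ beyond the spread (19768, 27457, 26261, 12850 and 11059 against 15156, 16300, 15229, 20892 and 32061, log2 difference -0.04 ± 0.30 (SE), adjusted p = 0.94). The 1 higher gene was EMILIN1, an elastic fibre glycoprotein (log2 difference 0.79 ± 0.20 (SE), adjusted p = 0.0092).

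Among the small leucine-rich proteoglycans, which bind collagen fibrils and set their width, ASPN (asporin) was at 283, 193, 219.8, 216 and 262 against 1338, 666, 845, 988 and 2155 (log2 difference -2.36 ± 0.29 (SE), adjusted p = 0.00022). The 2 groups were separated by a wide gap. PODN (podocan) followed (log2 difference -2.61 ± 0.63 (SE), adjusted p = 0.008), while FMOD (-1.01 (adjusted p = 0.0026)) and LUM (-0.62 (adjusted p = 0.032)) were lower by less. DCN, decorin, was at 1327, 637, 690.2, 681 and 730.4 against 1129, 684, 1262, 1328 and 1726 and was not called (log2 difference -0.6 ± 0.26 (SE), adjusted p = 0.092). Clones L, C and I lay inside the range of the MKI67-low clones. TSKU (0.68 (adjusted p = 0.0053)) and PRELP (0.67 (adjusted p = 0.024)) were higher.

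Of 28 tested enzymes and chaperones that modify and crosslink collagen, 10 were lower (35.7%) and 3 higher (10.7%). LOXL4, a lysyl oxidase that starts crosslinks, was at 6.39, 151, 166, 169 and 309 against 1368, 827, 1384, 692 and 1354 (log2 difference -2.82 ± 0.68 (SE), adjusted p = 0.008). Clone L stood far under the others at 6.39 normalised CPM. LOXL2 (-0.89 (adjusted p = 0.011)) and the prolyl hydroxylases P4HA1 (-1.05 (adjusted p = 0.0038)) and P4HA3 (-1.53 (adjusted p = 0.011)) were lower, whereas LOXL1 was higher (0.71 (adjusted p = 0.0073)). The higher members COLGALT1, which glycosylates collagen (1.02 (adjusted p = 0.013)), and LEPREL1, a prolyl 3-hydroxylase (1.27 (adjusted p = 0.031)), were led by clones C and O, and neither was called with those clones left out.

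Of 27 tested proteases of the matrix and their inhibitors, 10 were lower (37.0%) and 2 higher (7.41%). The lower genes included ADAMTS5, an aggrecanase, at 13.4, 26.4, 29.1, 11.9 and 23.5 against 40.2, 41.1, 56.4, 55.7 and 109 (log2 difference -1.54 ± 0.33 (SE), adjusted p = 0.0044), the gelatinase MMP2 (log2 difference -0.9 ± 0.14 (SE), adjusted p = 0.00069) and the bone-resorbing cathepsin CTSK (log2 difference -1.39 ± 0.26 (SE), adjusted p = 0.0022). PLAU, the urokinase that activates plasminogen, was higher (158 to 211 against 83.2 to 147, log2 difference 0.77 ± 0.16 (SE), adjusted p = 0.0035), as was the membrane-bound MMP16 (log2 difference 1.16 ± 0.28 (SE), adjusted p = 0.0076). The tissue inhibitors TIMP1, TIMP2 and TIMP3 were not called.

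DDR2, the receptor tyrosine kinase that senses fibrillar collagen, had the smallest adjusted p of the family. It was at 120.5, 127, 132, 130.3 and 134 normalised CPM in the MKI67-high clones and at 282, 268, 273, 263 and 291 in the MKI67-low clones (log2 difference -1.1 ± 0.08 (SE), adjusted p = 5.6e-05). Within each group the values spanned a narrow range, and the groups were far from overlap. The collagen-binding integrin ITGA11 (log2 difference -1.28 ± 0.25 (SE), adjusted p = 0.0032), the glypican GPC4 (log2 difference -1.16 ± 0.21 (SE), adjusted p = 0.0017) and the syndecans SDC1 (-0.96 (adjusted p = 0.0046)), SDC2 (-0.88 (adjusted p = 0.0023)) and SDC3 (-0.91 (adjusted p = 0.0034)) were lower, in all 8 of 25 tested receptors. The laminin-binding integrin ITGA6 was higher, at 129, 315, 268, 101 and 83.5 against 48.7, 25.97, 33.1, 53.02 and 36.6 (log2 difference 2.18 ± 0.38 (SE), adjusted p = 0.0015), and so were SDC4 (0.92 (adjusted p = 0.0098)) and ITGB8 (0.72 (adjusted p = 0.018)).

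Of 15 tested genes of cartilage matrix 2 were higher (13.3%) and 0 lower by edgeR. COL2A1, the type II collagen of cartilage, was at 16.6, 1215, 1063, 265 and 19.1 in clones L, O, C, G and I and at 34.99, 70.2, 23.8, 30.3 and 37.97 in clones F, D, E, B and M (log2 difference 3.71 ± 1.06 (SE), adjusted p = 0.018). Clones O, C and G were high, while L and I lay under every MKI67-low clone, so the groups overlapped from both sides. With clones C and O left out, the log2 difference was 1.35 (adjusted p = 0.26). ACAN, aggrecan, had the same pair of clones on top (239, 1356, 1193, 107 and 39.6 against 90.9, 302, 38.2, 88.97 and 50.5) and was not called (log2 difference 2.37 ± 0.92 (SE), adjusted p = 0.061); without C and O its log2 difference was 0.18 (adjusted p = 0.88). With those 2 clones left out, 8 matrix genes were higher and 45 lower, beside 1158 and 1034 of all 10991 genes tested in that fit.

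**Figure D3:**
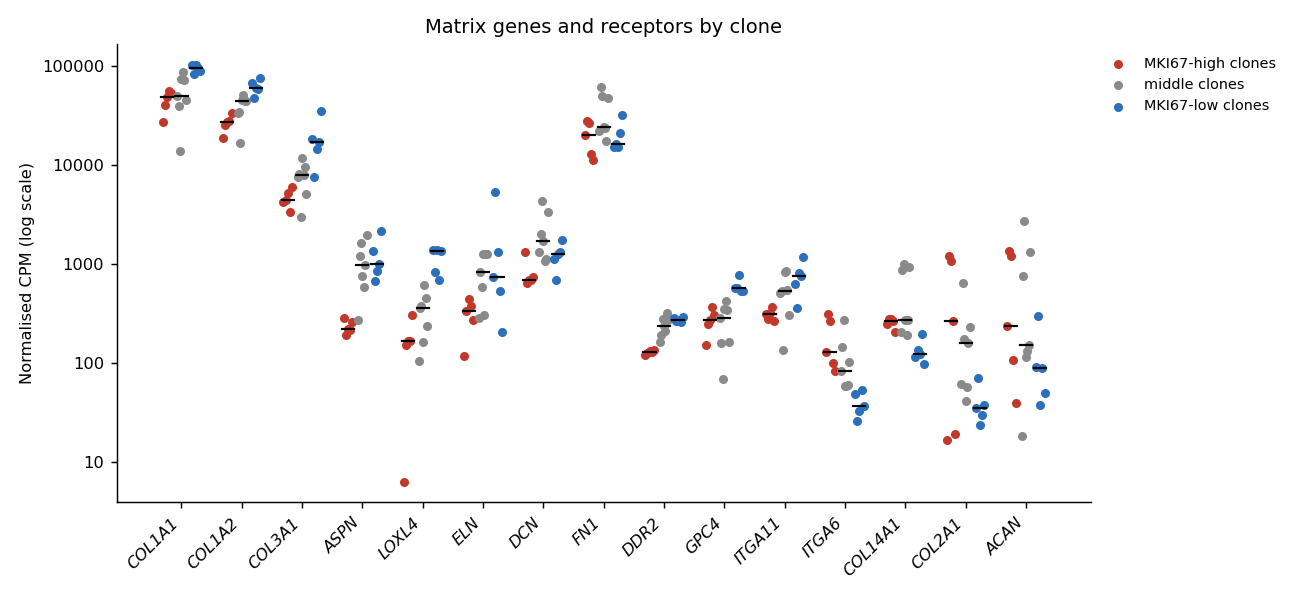
Normalised CPM (log axis) of 15 matrix genes and receptors, 1 point a clone, with bars at the medians of the 5 MKI67-high, 7 middle and 5 MKI67-low clones. COL1A1, COL1A2, COL3A1, ASPN, LOXL4, DDR2 and GPC4 separate the MKI67-high from the MKI67-low clones on the lower side and ITGA6 and COL14A1 on the higher side, whereas ELN, DCN, FN1, ITGA11, COL2A1 and ACAN overlap.

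Interferon-related genes were lower in MKI67-high clones more often than higher. Of 109 in the files only 73 had enough reads to be tested, and 27 (37.0%) were lower and 5 (6.85%) higher. The classic induced genes ISG15 and MX1 were among the untested, at no more than 0.625 and 0.603 normalised CPM in any of the 10 clones. Of the signalling genes, 9 of 21 were lower (42.9%) and 1 higher. These included the transcription factor STAT2 (28.2 to 37.8 against 45.1 to 62.3, log2 difference -0.65 ± 0.11 (SE), adjusted p = 0.0011), the RNA sensors DDX58 (-0.64 (adjusted p = 0.0034)) and TLR3 (-1.13 (adjusted p = 0.0075)), and both chains of the interferon-gamma receptor, IFNGR1 (-0.45 (adjusted p = 0.0056)) and IFNGR2 (-0.55 (adjusted p = 0.006)). The differences in STAT2 and the receptor chains were under 1 on the log2 scale, yet the groups did not overlap.

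MB21D1, which encodes the DNA sensor cGAS, went the other way. It was at 8.35, 7.68, 5.86, 7.57 and 4.14 normalised CPM in MKI67-high clones and at 1.46, 2.23, 0.718, 1.16 and 1.15 in MKI67-low clones (log2 difference 2.33 ± 0.29 (SE), adjusted p = 0.00024). The groups did not overlap, and the 7 middle clones lay at 1.002 to 3.498.

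Among 36 tested antiviral effectors and induced genes, 12 were lower (33.3%) and 4 higher (11.1%). IFIT1, which binds foreign RNA, was at 13.4 to 47.2 against 65.2 to 107 (log2 difference -1.83 ± 0.31 (SE), adjusted p = 0.0012). PARP14 (-1.1 (adjusted p = 0.005)), RNF213 (-0.71 (adjusted p = 0.0012)) and DTX3L (-0.68 (adjusted p = 0.0023)) were lower without overlap. CCL5, a chemokine that draws leukocytes, was at 0.368, 1.02, 0.741, 2.57 and 1.77 against 14.03, 5.71, 21.8, 2.24 and 5.91 (log2 difference -2.95 ± 0.64 (SE), adjusted p = 0.0049), with the groups overlapping at clones G and B. Antigen presentation genes were lower in 6 of 16 cases (37.5%) and higher in 0 by edgeR, with B2M, the light chain of class I molecules, at 44.2 to 101 against 80.5 to 112 (log2 difference -0.64 ± 0.22 (SE), adjusted p = 0.036); genes of the BOLA locus share sequence, so their counts are uncertain. With clones C and O left out 10 interferon genes were lower (2 higher), and under library totals 11 were lower (12 higher). The counts over all genes moved too. Without the pair 1034 of 10991 genes were lower and 1158 higher, and under library totals 884 of 10838 were lower and 3762 higher.

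Of 143 tested genes of the secretory pathway 13 were higher (9.09%) and 26 lower (18.2%), beside 18.8% and 19.1% of all genes, with a median log2 difference of -0.10 that turned to 0.13 under library totals. The general chaperone and the entry pore did not pass the test. HSPA5, the chaperone BiP of the endoplasmic reticulum, was at 897, 1275, 1247, 1453 and 1560 against 1546, 1289, 1221, 1519 and 1351 (log2 difference -0.11 ± 0.15 (SE), adjusted p = 0.59). SEC61A1, the pore through which secreted proteins enter, was at 317 to 549 against 385 to 493 (log2 difference 0.06 ± 0.15 (SE), adjusted p = 0.78). A p above the threshold does not show that the levels were equal, but both differences were under 1 SE.

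Other members of the machinery were called on either side. Of the genes of entry, SEC62 (-0.59 (adjusted p = 0.0019)) and the signal recognition particle gene SRP14 (-0.56 (adjusted p = 0.0094)) were lower and SRP68 of the same particle higher (0.35 (adjusted p = 0.012)), and the COPII coat gene SEC23A was lower (-0.39 (adjusted p = 0.018)). PDIA4, a disulphide isomerase, was higher at 925, 1025, 968, 816 and 637 against 552, 388, 577, 507 and 568 (log2 difference 0.75 ± 0.15 (SE), adjusted p = 0.0037), and MANF, a secreted stress-induced protein of the endoplasmic reticulum, at 177 to 289.8 against 78.8 to 163 (log2 difference 0.81 ± 0.19 (SE), adjusted p = 0.0072). DNAJB9 (log2 difference -0.82 ± 0.16 (SE), adjusted p = 0.0033) and SIL1 (log2 difference -0.66 ± 0.11 (SE), adjusted p = 0.0013), both cochaperones of HSPA5, were lower, each without overlap. The oligosaccharyltransferase subunit RPN2 was at 542 to 665 against 785 to 884 (log2 difference -0.43 ± 0.09 (SE), adjusted p = 0.0041), and the cargo receptor ERGIC3 at 101 to 129.7 against 168 to 212 (log2 difference -0.73 ± 0.10 (SE), adjusted p = 0.00044). FURIN, the protease that cleaves proproteins in the Golgi, was at 222, 519, 489, 236 and 133 against 106, 117, 138, 134 and 121 (log2 difference 1.37 ± 0.33 (SE), adjusted p = 0.0077), with clones O and C far above the rest. Of 32 genes of COPII export, which carries procollagen out of the endoplasmic reticulum, 26 were not called. Under library totals edgeR no longer called SRP14 (adjusted p = 0.059), SEC23A (adjusted p = 0.26) and RPN2 (adjusted p = 0.073). SEC62, DNAJB9, SIL1 and ERGIC3 were still called lower there. With C and O left out 3 secretory genes were higher and 11 lower, beside 1158 and 1034 of all 10991 genes tested in that fit. Under library totals 38 were higher and 6 lower, beside 3762 and 884 of all 10838 genes.

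Of the matrix, interferon, secretory and chromatin families, chromatin genes had the most higher calls: 90 of 186 tested (48.4%) were higher and 19 (10.2%) lower, with a median log2 difference of 0.30. In 60 of them the groups did not overlap on the higher and in 13 on the lower side. Leaving out the 13 that are also on the cell cycle list, 77 of 173 were higher and 19 lower. These still hold genes that act with replication although the list lacked them, such as DNMT1 and CHAF1A. Their adjusted p-values are then not independent of the MKI67 that chose the clones. How much of the chromatin count comes from such genes was not tested. With clones C and O left out, 58 of the family were higher and 12 lower, beside 1158 and 1034 of all 10991 genes tested in that fit.

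Of the 10 HMG proteins, small abundant proteins that bend DNA or bind nucleosomes, 8 were higher and 0 lower by edgeR. HMGN2, which binds the nucleosome core, was at 428, 386, 353, 333 and 232 in clones L, O, C, G and I and at 117, 107, 114, 131 and 101 in clones F, D, E, B and M (log2 difference 1.6 ± 0.15 (SE), adjusted p = 7.9e-05). HMGB1 was at 110.1, 116, 107, 105 and 69.3 against 34.3, 32.8, 30.6, 32.4 and 25.2 (log2 difference 1.71 ± 0.14 (SE), adjusted p = 7.1e-05). In both genes clone I was lowest of its group and still above every MKI67-low clone. HMGA2, a fetal HMG protein of undifferentiated mesenchyme, was at 13.5 to 18.9 against 3.13 to 5.24 (log2 difference 1.76 ± 0.17 (SE), adjusted p = 7.9e-05). HMG genes have near-identical processed copies in mammalian genomes, so part of their reads may be counted elsewhere or not at all.

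Histone genes split. The replication-independent variant H2AFZ was higher, at 325, 403, 359, 424 and 245 against 119.9, 93.6, 114, 96.9 and 81.9 (log2 difference 1.79 ± 0.16 (SE), adjusted p = 7.1e-05), as were H2AFV (1.16 (adjusted p = 7.8e-05)) and the linker histone H1FX (1.45 (adjusted p = 0.00028)). HIST2H2BE was lower, at 44.8, 44.8, 54.1, 51.9 and 104 against 185, 159, 206, 201 and 231 (log2 difference -1.71 ± 0.23 (SE), adjusted p = 0.00035), and so was the linker histone HIST1H1C (log2 difference -1.98 ± 0.37 (SE), adjusted p = 0.0024). Most messages of replication-dependent histones lack the poly(A) tail by which these libraries were made, and their genes share sequence, so these counts cover part of the messages only. Of the histone chaperones, 15 of 21 (11 of 17 outside the cell cycle list) were higher and 0 lower by edgeR, among them the largest subunit of the assembly factor CAF-1, CHAF1A (28.8 to 86.4 against 8.77 to 15.98, log2 difference 2.65 ± 0.28 (SE), adjusted p = 0.00012), and the FACT subunit SSRP1 (1.27 (adjusted p = 0.00014)).

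DNMT1, which copies methylation onto new DNA, was at 196, 197, 192, 197 and 101 against 61.1, 84.6, 67.7, 60.8 and 57.8 (log2 difference 1.41 ± 0.19 (SE), adjusted p = 0.00031). Clones L, O, C and G lay within 192 to 197 and clone I at 100.5, between them and the MKI67-low clones. Its partner UHRF1, a listed cell cycle gene given without a test, was at 92.02 to 282 against 13.6 to 29.9. The de novo methyltransferase DNMT3A was lower (log2 difference -0.43 ± 0.13 (SE), adjusted p = 0.023) and TET2, which oxidises methylcytosine, was lower as well (log2 difference -0.36 ± 0.11 (SE), adjusted p = 0.029); under library totals neither was called.

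In the Polycomb list the catalytic subunits of PRC2 lay on opposite sides. EZH2, also a cell cycle gene and given without a test, was at 111, 115, 104, 97.96 and 51.3 against 21.04, 29.2, 20.98, 19.8 and 20.6, and its paralogue EZH1 at 27.6, 25.6, 25.7, 22.9 and 30.8 against 41.6, 49.6, 34.6, 39.8 and 42.1 (log2 difference -0.65 ± 0.11 (SE), adjusted p = 0.0012). The PRC2 partners SUZ12 (0.65 (adjusted p = 0.002)), EED (0.63 (adjusted p = 0.0015)) and PHF19 (2.3 (adjusted p = 0.0002)) were higher. The chromodomain reader CBX2 was higher (1.45 (adjusted p = 0.0021)).

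Remodellers were higher in 12 of 30 cases and lower in 5. SMARCA4, the ATPase BRG1 of the SWI/SNF complex, was at 255, 286, 274, 283 and 179 against 145, 122, 165, 148 and 151 (log2 difference 0.8 ± 0.14 (SE), adjusted p = 0.0014), with its core partners SMARCC1 (0.84 (adjusted p = 0.0033)) and SMARCB1 (0.54 (adjusted p = 0.00072)). SMARCA1 (-0.97 (adjusted p = 0.0014)) and the muscle-associated subunit SMARCD3 (-1.06 (adjusted p = 0.0063)) were lower. Of the 54 tested histone modifying enzymes and readers 21 were higher (38.9%) and 5 lower (9.26%). The H3K79 methyltransferase DOT1L (log2 difference 1.29 ± 0.18 (SE), adjusted p = 0.0004) and the H3K4 methyltransferases SETD1A (0.92 (adjusted p = 0.0017)), SETD1B (0.75 (adjusted p = 0.012)) and KMT2B (0.79 (adjusted p = 0.0025)) were higher, while the demethylases KDM4A (-0.57 (adjusted p = 0.00093)), KDM4B (-0.67 (adjusted p = 0.0042)) and KDM4C (-0.33 (adjusted p = 0.013)) and the deacetylase HDAC11 (-1.36 (adjusted p = 0.014)) were lower. Cohesin subunits SMC1A (1.54 (adjusted p = 0.00044)), SMC3 (0.75 (adjusted p = 0.002)) and RAD21 (1.04 (adjusted p = 0.0011)) and the insulator protein CTCF (0.51 (adjusted p = 0.0037)) were higher, among 6 of 11 with 0 lower by edgeR.

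**Figure D4:**
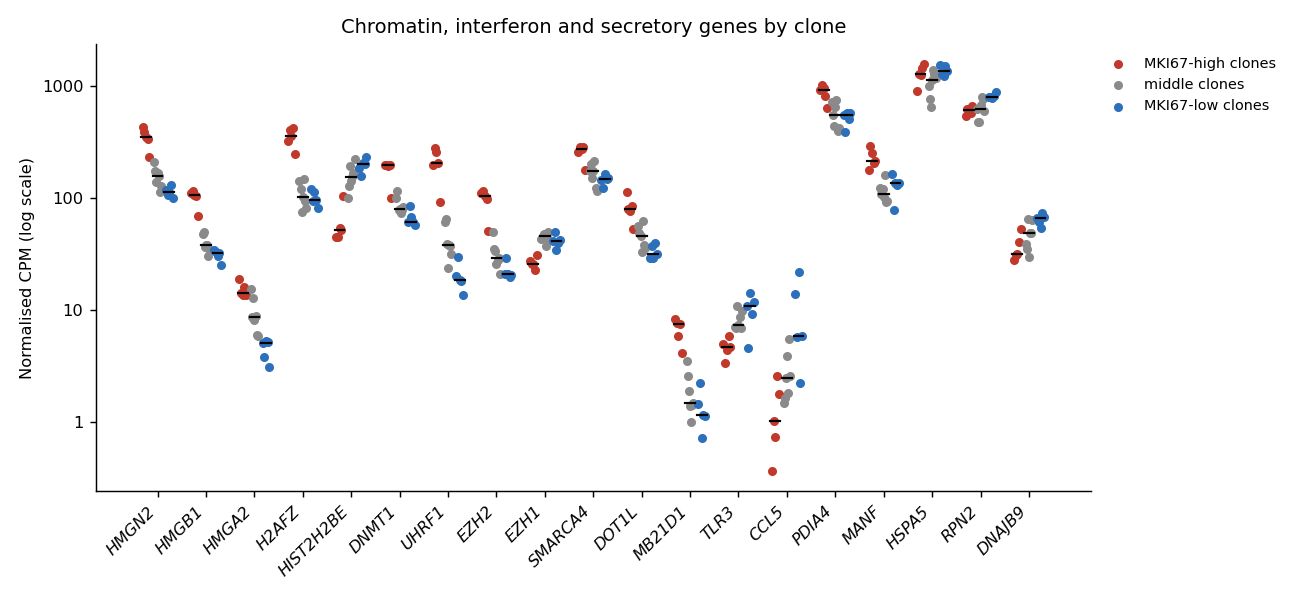
Normalised CPM (log axis) of 19 chromatin, interferon and secretory genes, 1 point a clone, with bars at the group medians. HMGN2, HMGB1, HMGA2, H2AFZ, DNMT1, UHRF1, EZH2, SMARCA4, DOT1L, MB21D1, PDIA4 and MANF lie higher in the MKI67-high clones and HIST2H2BE, EZH1, RPN2 and DNAJB9 lower, each without overlap, while TLR3, CCL5 and HSPA5 overlap.

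Outside the cell cycle list, called genes without overlap were named in order of p-value, 8 in each direction, and not by the size of the difference. The higher genes include HMGB1 and several genes that also serve replication or division although the list lacked them: POC1A of the centriole, CENPW of the kinetochore, MASTL, the kinase that blocks a mitotic phosphatase, the RNase H2 subunits RNASEH2A and RNASEH2C, and FIGNL1 of DNA repair. The lower 8 hold DDR2, given above, and TP53INP1, a target of p53 that acts in cell death and autophagy, at 189.8, 174, 187, 213 and 217 against 650.1, 584, 499.5, 682 and 566 (log2 difference -1.61 ± 0.11 (SE), adjusted p = 5.6e-05). VDR, the vitamin D receptor, was at 29.1, 34.7, 44.4, 41.2 and 42.6 against 116, 110.0, 107, 122 and 107 (log2 difference -1.55 ± 0.12 (SE), adjusted p = 5.7e-05), and DKK3, a secreted glycoprotein of the Dickkopf family, at 98.7 to 188 against 399 to 532 (log2 difference -1.89 ± 0.17 (SE), adjusted p = 7.1e-05). ZMAT3 (-1.24 (adjusted p = 7.1e-05)), another p53 target, DLG3 (-1.41 (adjusted p = 7.1e-05)), CCDC91 (-0.99 (adjusted p = 7.9e-05)) and N4BP2L1 (-1.39 (adjusted p = 8.5e-05)) complete the 8.

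The 7 middle clones, which were in neither group, gave a further look at the same genes. Their MKI67 spanned 65.2 to 207.2 CPM. In a slope on log2 MKI67 over these 7 clones, 0 of 11253 genes passed an adjusted p of 0.05 in edgeR (0.00%), the smallest adjusted p was 0.181 and 462 genes had an unadjusted p under 0.05. Of the genes called between the groups outside the cell cycle list, 3417 of 3921 (87.1%) had a slope of the same sign in the middle clones, against 62.8% of the genes not called. Called genes with an unadjusted p under 0.05 in the middle clones had the same sign in 250 cases and the opposite sign in 1. DDR2 had a slope of -0.50 on the log2 scale for each doubling of MKI67, TP53INP1 -0.57, HMGN2 0.45 and HIST2H2BE -0.58. COL3A1 (slope 0.04) and ITGA11 (0.02) had hardly any slope there, and the fibulin FBLN2 (-1.03) and ELN (-0.99) had a slope of the sign found between the groups. The matrix genes called between the groups had the same sign in 63 of 76 cases, interferon genes in 27 of 32, secretory genes in 35 of 39 and chromatin genes in 104 of 109.

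**Figure D5:**
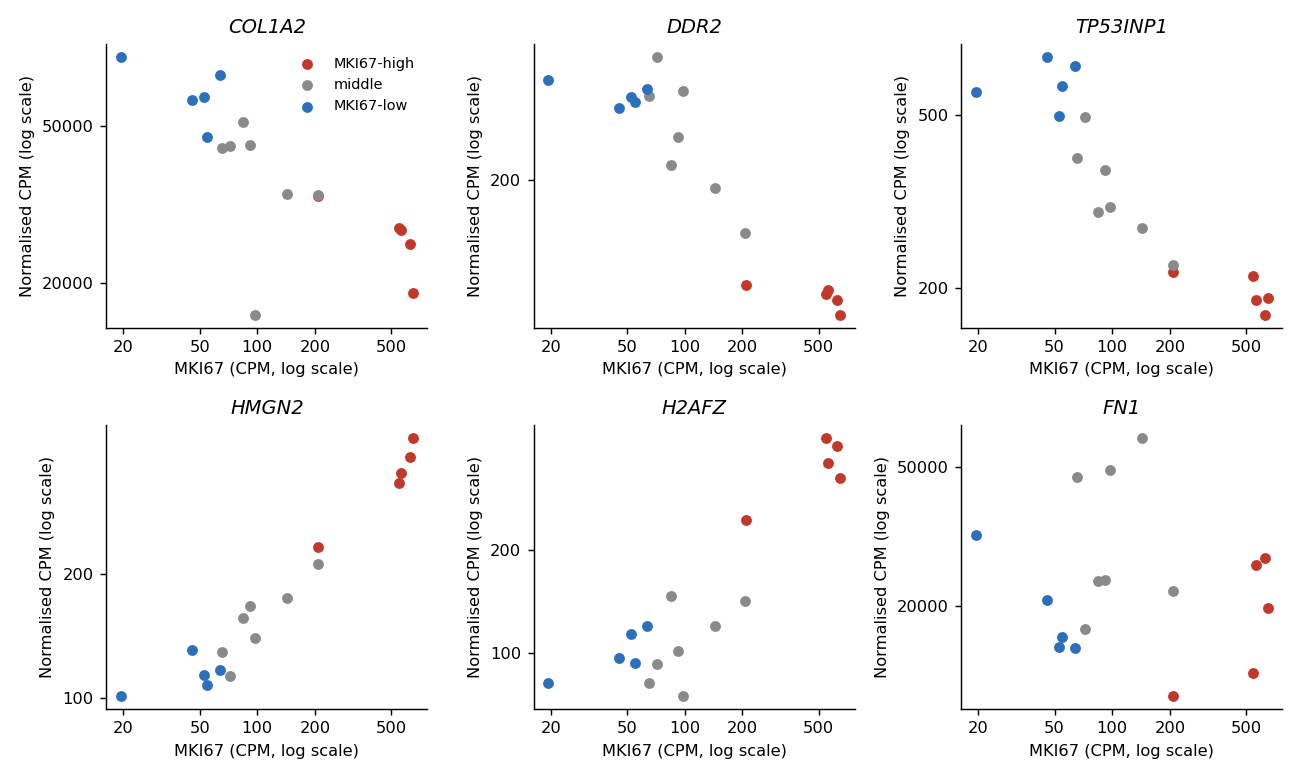
Normalised CPM of 6 genes against MKI67 (CPM) in the 17 clones, both axes logarithmic. DDR2, TP53INP1 and COL1A2 lie lower and HMGN2 and H2AFZ higher at high MKI67, with clones H and P between the groups in each of them. Middle clone N is lowest of all 17 clones in COL1A2 (16655 normalised CPM), and FN1 shows no such order and is highest in middle clone P.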

How the data were processed

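Poly(A) RNA of 17 clones and 1 mixed population of bovine MSCs was sequenced single-end. The authors aligned the reads with STAR 2.3.0e to bosTau7, counted them with HTSeq on RefSeq genes, and deposited the raw counts of each library without normalisation. The 5 tally lines of each file that name no gene stayed out of library sizes and tests. Strand use in counting is not given in the sources used here, so overlapping and antisense genes cannot be told apart, and neither can near-identical copies. The files list 16989 genes, 2548 of them at 0 throughout. Their symbols were found for 15471 genes (91.06%) in a RefSeq table of another build (ARS-UCD2.0), so no coordinates are given.

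Clones were ranked by MKI67 CPM. The test was edgeR 4.0.16 (TMM, filterByExpr, glmQLFit, glmQLFTest) in R 4.3.3 on the counts of 5 against 5 clones with Benjamini-Hochberg adjustment over 10838 genes. An adjusted p measures association with MKI67 across these clones, and MKI67 and the listed cell cycle genes (181 of 184 in the files) carry no test. The SE is the log2 difference over the square root of F. Values are CPM scaled by TMM factors over all 18 libraries. Alternatives were DESeq2 1.42.0, limma-voom (limma 3.58.1), other scalings, filters, cuts and samples. Tables and plots came from pandas 2.3.3 and matplotlib 3.10.9 under Python 3.11.15, the permutation test from scipy 1.17.1.

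Genes named by rule were the 6 markers given with the groups; the 8 higher and 8 lower genes with the smallest p among called genes off the cell cycle list whose plain CPM did not overlap; per list, the 2 largest called differences in each direction, or with no call the member with the highest mean CPM; and ACAN, COL2A1, COL1A1, COL3A1, DCN, FN1, ISG15, MX1, HSPA5, SEC61A1, HMGA2 and DNMT1. Some genes that these rules name are counted but not reported here. Other genes were named from the lists after their values were seen. The clones and the lists were chosen with earlier results of these data known.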

Additional observations from a re-analysis of the deposited data

Results flagged for a closer look

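In each group of 5 clones, the highest and lowest value of each named gene outside the cell cycle list was set against the rest by Dixon's test on log2(normalised CPM + 0.25). Chance passes about 1 group in 20 (5%), and 25 of 198 groups passed (12.6%), 14 of them in clone I. Values below are normalised CPM, for some with the range of the other 4 clones of the group in brackets.

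Clone I, the MKI67-high clone beside the cut, was low in FIGNL1 at 8.62 and MASTL at 8.29. It was low in chromatin genes too: DNMT1 at 100.5 (192.4 to 197.3), HMGB1 at 69.3 (105.1 to 116.4), CHAF1A at 28.8, SMARCC1 at 109.8, SMARCA4 at 179, SETD1A at 38.4, ESCO2 at 4.75 and HIST2H2AC at 0.951. TSKU (78.9) and ISG20 (0.611) were low as well. COL18A1 at 9.44 (2.4 to 2.57) and HIST2H2BE at 104.5 (44.8 to 54.1) were high in clone I. HIST2H2BE was lower in the MKI67-high than in the MKI67-low clones, and COL18A1 was higher.

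Clone D stood apart among the MKI67-low clones with MMP16 at 24.7, ZBP1 at 0.179 (others 2.04 to 2.87) and SMARCC1 at 81.5 on the low side, and CHAF1A at 15.98 and HDAC11 at 14.3 on the high side. Clone L had LOXL4 at 6.39 (others 151 to 309), HDAC11 at 1.41 and DCN at 1327 (637 to 730.4). Clone M had the highest RPN2 at 884, clone E the highest GPC4 at 771, and clone O the highest CD274 of its group at 1.02.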

How the results depend on the processing

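Counts of genes per family kept within 1.5 times under relative log expression factors, no filter, limma-voom, 3 levels over 17 clones, the slope over 17 clones and 4 against 4 clones. The ranking by cell cycle genes picked the same clones, so that setting repeated the comparison reported and could not change a count. With library totals alone, 3762 genes were higher and 884 lower, and the families gave 33 matrix, 12 interferon and 38 secretory genes higher and 11 interferon, 6 secretory and 11 chromatin genes lower. DESeq2 gave 26 matrix genes higher, and 6 against 6 clones gave 7. In the latter COL14A1 changed sign, to -0.1002 (adjusted p = 0.895, against 0.00198 in the comparison reported). The cause was not tested.

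Leaving out each of the 10 clones in turn (4 against 5) gave 1597 to 2351 genes higher and 1537 to 2496 lower; matrix 13 to 22 and 50 to 62, interferon 3 to 7 and 19 to 32, secretory 8 to 16 and 16 to 32, chromatin 75 to 104 and 15 to 19. Counts moved by over 1.5 times without clone O (3 interferon genes higher), without O or C (8 secretory genes higher), and without clone G (17) or F, E or B (16) for secretory genes lower. After seeing the data, clones C and O were counted as 1 sample (3285 genes called, 8 secretory genes higher) or both left out, which leaves 3 clones against 5: 1158 genes higher and 1034 lower, 8 matrix, 2 interferon, 3 secretory and 58 chromatin genes higher, and 10 interferon, 11 secretory and 12 chromatin genes lower. With clone H in place of clone I 2071 genes were higher and 2076 lower. Of 101 named genes that were tested and are not on the cell cycle list, 60 kept their side of the threshold in every one of these 23 settings. The called genes among the 60 also kept their direction. The 23 include the ranking by cell cycle genes, which repeats the comparison reported. A change of sign in a gene called in neither fit was not counted as a change. Such changes were seen for FN1 in 6 settings, SEC61A1 in 4 and HSPA5 in 1. No paired analysis was possible because the clone letters are names that pair no samples. Of the 4 families, interferon genes had the fewest with enough reads for a test, 73 of 109; whether depth or absent expression limits them was not tested.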

Other observations

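Gene lists outside the 4 families were counted in the same comparison, in which 18.8% of all genes tested were higher and 19.1% lower. Where the shares of a list lie near or under these, its calls are no result about the list. Splicing and RNA-binding genes were higher in 40 of 49 cases and lower in 0 by edgeR, with a median log2 difference of 0.61, among them the SR proteins SRSF2 (log2 difference 0.99 ± 0.09 (SE), adjusted p = 7.1e-05) and SRSF7 (116 to 162 normalised CPM in MKI67-high and 39.01 to 67.8 in MKI67-low clones, log2 difference 1.34 ± 0.15 (SE), adjusted p = 0.00015) and the U1 protein SNRPA (log2 difference 1.44 ± 0.14 (SE), adjusted p = 7.9e-05). Lysosomal genes were lower in 28 of 41 cases and higher in 1, with a median of -0.63. The acid hydrolases SMPD1 (44.5 to 68.2 against 102.7 to 134.8, log2 difference -1.1 ± 0.15 (SE), adjusted p = 0.00035) and CTSD (log2 difference -1.14 ± 0.21 (SE), adjusted p = 0.002) did not overlap between the groups. Targets of ATF4 and serine synthesis genes were lower in 13 of 28 cases and higher in 0 by edgeR, with NUPR1 (log2 difference -1.68 ± 0.27 (SE), adjusted p = 0.00095), ALDH1L2 (log2 difference -1.13 ± 0.14 (SE), adjusted p = 0.0002) and the cystine transporter SLC7A11 (log2 difference -0.87 ± 0.13 (SE), adjusted p = 0.00059). Cholesterol synthesis genes were higher in 5 of 23 cases (21.7%, near the share of all genes), with a median of 0.56. Of these 5 only EBP (log2 difference 0.77 ± 0.17 (SE), adjusted p = 0.0054) did not overlap. These counts changed under library totals, where 3762 of all genes were higher and 884 lower. There 46 splicing genes and 13 cholesterol genes were higher and 0 lower. Of the lysosomal genes 19 were lower and 4 higher, and of the ATF4 and serine genes 8 were lower and 3 higher.

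Of 28 inhibitors of cyclin-dependent kinases, quiescence genes and p53 targets, 11 were lower (39.3%) and 4 higher (14.3%). Under library totals 7 were lower and 5 higher. CDKN1A (p21) was at 91.98 to 169.5 against 173.2 to 252.4 (log2 difference -0.55 ± 0.18 (SE), adjusted p = 0.031), CDKN2B (p15) at 26.9 to 76.5 against 76.8 to 168 (log2 difference -1.56 ± 0.32 (SE), adjusted p = 0.0036) and MDM2 at 29.2 to 34.3 against 37.6 to 54.3 (log2 difference -0.54 ± 0.10 (SE), adjusted p = 0.0022). CDKN2C (p18) went the other way (log2 difference 1.67 ± 0.19 (SE), adjusted p = 0.00016). Of 27 genes of TGF-beta and BMP signalling 4 were higher and 4 lower (14.8% each, under the shares of all genes). TGFB1 was higher (log2 difference 1.27 ± 0.22 (SE), adjusted p = 0.0016) and TGFB2 lower (log2 difference -1.49 ± 0.37 (SE), adjusted p = 0.0091), the BMP target ID1 higher (log2 difference 2.7 ± 0.45 (SE), adjusted p = 0.0012) and BMP4 lower (log2 difference -1.02 ± 0.24 (SE), adjusted p = 0.0072). Genes of the complement and chemokine list, which also holds the cytokine LIF, were higher in 3 of 17 cases (17.6%, under the share of all genes). These were LIF, CXCL6 and CXCL12 (132 to 340.2 against 34.6 to 96.3, log2 difference 1.66 ± 0.33 (SE), adjusted p = 0.0032). Adipocyte genes gave 1 higher and 4 lower of 15, osteoblast genes 0 and 2 of 8, contractile genes 1 and 4 of 24 (MYLK, log2 difference -2.03 ± 0.42 (SE), adjusted p = 0.0037), and mesenchymal surface genes 1 and 2 of 11, with PDGFRA higher (log2 difference 1.38 ± 0.28 (SE), adjusted p = 0.0034) and CD200 lower (log2 difference -2.11 ± 0.41 (SE), adjusted p = 0.0026). Of the macrophage list 1 of 5 tested genes was lower (CTSS), of the endothelial list 2 of 3 were higher, and of the erythroid list 0 could be tested.

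Genes on no list with large differences were picked after their values were seen. DKK1, a secreted inhibitor of Wnt signalling, was at 5.59, 28.4, 25.5, 20.6 and 7.88 normalised CPM in clones L, O, C, G and I and at 1.53, 0.446, 0.287, 1.56 and 0.603 in clones F, D, E, B and M (log2 difference 4.29 ± 0.58 (SE), adjusted p = 0.00036), the opposite side to DKK3. The metallothionein MT2A was at 14.7 to 90.8 against 2.59 to 6.11 (log2 difference 3.28 ± 0.49 (SE), adjusted p = 0.00065) and PROM1, which encodes CD133, at 1.36 to 9.42 against 0.121 to 0.365 (log2 difference 3.99 ± 0.52 (SE), adjusted p = 0.00028). On the lower side, the sodium-calcium exchanger SLC8A1 was at 6.75, 5.22, 4.98, 3.27 and 10.7 against 39.9, 32.8, 44.04, 30.5 and 37.1 (log2 difference -2.58 ± 0.26 (SE), adjusted p = 9.6e-05), the guidance ligand SLIT3 at 1.47 to 5.77 against 14.9 to 29.7 (log2 difference -2.59 ± 0.34 (SE), adjusted p = 0.00031) and the secreted protein WFDC1 at 10.4 to 38.2 against 69.4 to 279.7 (log2 difference -2.68 ± 0.43 (SE), adjusted p = 0.00091). For DKK1 and SLC8A1, no clone of one group reached the range of the other.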
